A study of Mus musculus with 14 samples.

Results

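The histone genes of the mouse were followed in RNA sequencing of whole ovaries from mice given dextran sulfate sodium (DSS), a polymer that inflames the colon, and from control mice. The genes were chosen by a rule on their names, with earlier results of these data known. They are the protein-coding genes of the deposited expression table whose symbol begins with Hist1h to Hist4h, H1f, H2ac, H2bc, H3c, H4c, H2af or H3f3. This rule took 71 of 56748 genes, and 21 of the 71 reached 0.5 FPKM (fragments per kilobase of gene, scaled to depth) in at least 3 of the 14 libraries and were tested. Among these, the linker histone genes H1f10 and H1f8 were lower at day 89 than at day 7, both in DSS mice and in control mice. No histone gene passed the test between DSS and control mice at either day.

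All mice were female wild-type C57BL/6J, and the groups were DSS at day 89 (4 libraries), control at day 89 (3 libraries), DSS at day 7 (4 libraries) and control at day 7 (3 libraries). Day 7 marks the end of the colitis model and day 89 a rest after it, as far as the labels and the series text say. Every day 89 replicate label begins with R and no day 7 label does, and what the letter means is not stated. Any difference of age, batch or handling between the days cannot be told apart from the day itself. The labels give neither age nor dose, and nothing says whether each library came from its own mouse, so a p-value here speaks of the spread among libraries, part of which may be technical. The labels name the tissue as ovary while the protocol speaks of retinas. All 9 ovary markers examined were expressed, with sums of 766 to 2950 FPKM per library, and 6 retina markers summed to at most 1.26 FPKM.

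Histones package DNA. Core histones H2A, H2B, H3 and H4 form the nucleosome, and linker histones of the H1 family bind where DNA enters and leaves it. Most core histone genes are replication-dependent. They lie in clusters, lack introns, are transcribed mainly while a cell copies its DNA, and their messages end in a conserved stem-loop in place of a poly(A) tail. Variant genes such as those for H3.3 have introns and polyadenylated messages, are expressed throughout the cell cycle and supply histones to cells that no longer divide. An oocyte stores histones and has a linker histone of its own.

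The end of the message separates the classes of histone gene, so the ends of the members that matter here are shown first. Each sequence was read 5′ to 3′ on the gene's own strand from GENCODE M21 transcripts on build GRCm38, matched by gene ID. Capitals mark either the stem-loop letters, searched as GG, any pair of bases, CTTTT, any base, AG, any base and GCC, or the poly(A) hexamer AATAAA or ATTAAA. The linker genes H1f10 (chr6:87980424-87980449, minus strand), H1f8 (chr6:115950206-115950231, plus), H1f0 (chr15:79030475-79030500, plus) and the H3.3 gene H3f3a (chr1:180800836-180800861, minus) carried the hexamer and no stem-loop letters.
H1f10 hexamer: tggggcgcAATAAAcggttccaacct
H1f8 hexamer: aatttatcAATAAAgactttgtattc
H1f0 hexamer: aactttaaAATAAAactggaaaggaa
H3f3a hexamer: tgaaaaatAATAAAagtaccaataga
The linker gene H1f2 and the H4 genes H4c9 and H4c8 carried both. In H1f2 the stem-loop (chr13:23739507-23739532, plus) lay 840 bases before the end of the annotated transcript, and the hexamer (chr13:23740334-23740359) at its end. In H4c9 (chr13:22040961-22040986 and chr13:22040639-22040664, minus) the distance was 330 bases, and in H4c8 (chr13:23531453-23531478 and chr13:23531480-23531505, plus) 46 bases.
H1f2 stem-loop: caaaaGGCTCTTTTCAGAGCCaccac
H1f2 hexamer: atgcttctAATAAAaagcgtttagtt
H4c9 stem-loop: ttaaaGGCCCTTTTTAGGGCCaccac
H4c9 hexamer: ctgtttacATTAAAagtattctatgc
H4c8 stem-loop: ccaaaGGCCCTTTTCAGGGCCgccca
H4c8 hexamer: attttcttATTAAAagagcgaacatg
The most highly expressed H3 gene of the clusters, H3c15 (chr3:96238480-96238505, minus), showed the stem-loop without a hexamer near its end, and the H2B gene H2bc21 (chr3:96223709-96223734, plus) the hexamer without a stem-loop.
H3c15 stem-loop: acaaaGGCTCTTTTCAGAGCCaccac
H2bc21 hexamer: ttattattAATAAAgttaccgattag

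The stem-loop letters were found in 46 of 21901 protein-coding gene models (0.21%), and 38 of these 46 were histone genes of the set. In 19 of the 38 the letters lay within 60 bases of the annotated end, and in 18 they lay more than 100 bases before it. A hexamer stood in the last 40 bases of 70% of all protein-coding models and of 19 of the 71 histone models. Of these 19 genes, 10 passed the filter on low values, and their median over genes of the mean FPKM was 0.552, with a range of 0 to 112 FPKM. Of the 30 genes with the stem-loop letters and no hexamer near the end, 6 passed, with a median of 0.16 FPKM and none above 2.18 FPKM. Of the 22 genes with neither, 5 passed, with a median of 0.118 FPKM. The highest member of all, the H3.3 gene H3f3b at a mean of 247 FPKM, is among these 22. Absence of the letters says only that they are not in the annotated model, and the depth of annotation of each end was not examined.

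**Figure D1:**
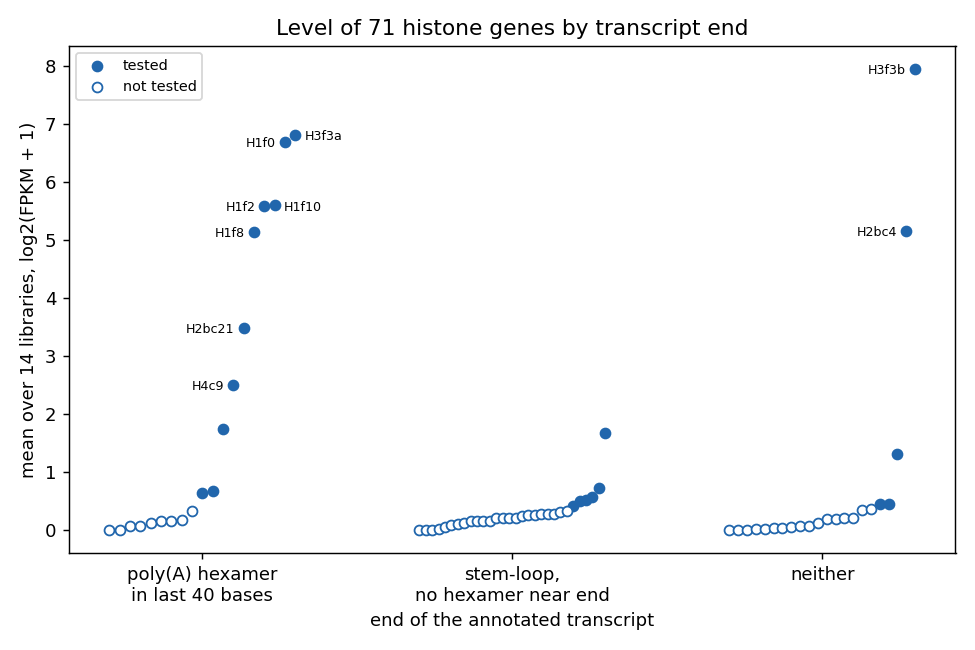
Mean FPKM of each of the 71 histone genes over 14 libraries, as log2(FPKM + 1), in 3 classes of annotated transcript end; filled points are the 21 genes tested and open points the 50 that were not. The 10 tested genes with a poly(A) hexamer include the H3.3 gene H3f3a and the linker genes H1f0, H1f10, H1f2 and H1f8. The highest gene with a stem-loop and no hexamer reached 2.18 FPKM. Of the core genes alone, 5 of 12 with a hexamer were tested, 6 of 28 with a stem-loop and no hexamer, and 4 of 18 with neither.

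Reads recovered from the FPKM steps came to 15.26 to 18.51 M per library. Histone genes took 0.141% to 0.196% of them. The 2 H3.3 genes held 71% of all histone reads and the 11 linker genes 24%. The 17 H2bc genes held 4.3%, the 12 H4c genes 0.388%, the 12 H3c genes 0.242% and the 17 H2ac genes 0.106%. These read shares are not corrected for length, and H3f3b and H3f3a are long, at 2976 and 3504 bases. In FPKM, which is corrected, the H3.3 genes summed to 359, the linker genes to 233 and the core genes to 64.6 (means over 14 libraries). DSS day 7 replicate 75 and control day 7 replicates 10 and 53 stood apart by a mitochondrial share of 14.2%, 9.96% and 12.2% of reads, and are called mitochondria-rich here. The libraries also differed by day in ways that bear on short and non-polyadenylated messages. The summed FPKM of RNAs known to lack a poly(A) tail, chiefly the 7SK RNA gene Rn7sk, was 1.48 to 3.6 in DSS day 89, 1.75 to 3.91 in control day 89, 15 to 58.6 in DSS day 7 and 12.1 to 23.1 in control day 7. No source used here says whether the libraries were selected for poly(A). The mean log2 level of genes under 1500 bases minus that of genes over 3000 bases, each gene centred on its mean over the libraries, was below 0 in all day 89 libraries except DSS replicate R38 (0.064) and above 0 in all day 7 libraries. What part these differences have in the comparisons between days was not tested, apart from the fit with the length trend removed.

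**Figure D2:**
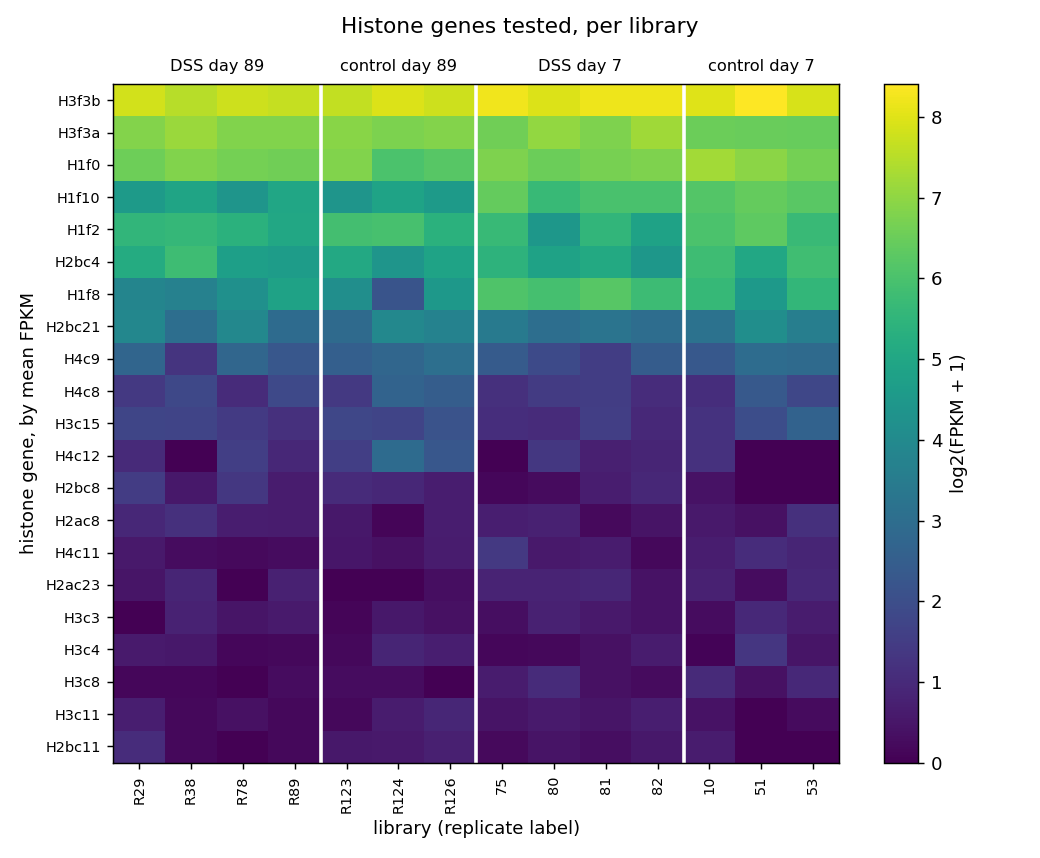
Level of the 21 tested histone genes (ordered from the highest mean FPKM at the top) in each of the 14 libraries, as log2(FPKM + 1). H1f10 is darker (lower) in all 7 day 89 libraries than in the 7 day 7 libraries, and H1f8 is darker at day 89 within each treatment; 12 of the 15 core genes have a mean below 3 FPKM.

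Of the 4 tested linker genes, H1f10 and H1f8 were called between days in both treatments, H1f0 in control mice and H1f2 in neither. H1f10 (formerly H1fx; chr6:87980421-87981637, minus strand) encodes a replication-independent linker histone found in many tissues. Values of single libraries are given in the order R29, R38, R78 and R89 for DSS day 89, R123, R124 and R126 for control day 89, 75, 80, 81 and 82 for DSS day 7, and 10, 51 and 53 for control day 7. H1f10 had 23.2, 29.2, 19.9 and 30.8 FPKM in DSS day 89 ovaries, against 84.2, 50, 62.2 and 63.2 FPKM in DSS day 7 ovaries. In control ovaries it had 19.8, 28.2 and 23.2 FPKM at day 89, against 70.4, 85.1 and 75.5 FPKM at day 7. Every day 89 library lay below every day 7 library, and within a day the DSS and control libraries overlapped. H1f10 fell to 25.8 ± 5.08 FPKM in DSS day 89, against 64.9 ± 14.2 FPKM in DSS day 7 (SD, n = 4 each), a log2 difference of -1.30 on the FPKM + 1 scale (SE 0.18, limma, Benjamini-Hochberg adjusted p = 0.00147). In control mice it fell to 23.7 ± 4.24 FPKM at day 89, against 77 ± 7.5 FPKM at day 7 (SD, n = 3 each), a log2 difference of -1.67 (SE 0.21, limma adjusted p = 0.000309). Both calls held in all 23 alternative settings, with differences of -1.41 to -1.06 in DSS and -1.82 to -1.33 in control mice. With the gene length trend removed the differences were -1.06 (limma adjusted p = 0.00249) in DSS mice and -1.33 (adjusted p = 0.000697) in control mice. Without the mitochondria-rich libraries they were -1.16 and -1.82. That fit leaves control replicate 51 alone at day 7, the library with the highest H1f10 value.

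A gene on the opposite strand, Gm5577, overlaps 755 bases of H1f10. Its level was 0.67 to 1.15 FPKM in DSS day 89, 0.416 to 1.08 in control day 89, 1.31 to 4.21 in DSS day 7 and 3.14 to 3.62 in control day 7, far below that of H1f10 per length. No source used here gives the strand handling of the counting, so reads of the overlap cannot be told apart. The genes whose levels over the 14 libraries ranked most like those of H1f10 were Adck5 (Spearman rho 0.978), Uqcrh (0.969), Adprs, Fis1, Tmem81 and Wdr73 (0.965 each), and Cyhr1, Gm1673, Mob2 and Ube2r2 (0.96 each). These values describe libraries that share the difference between days. Other lists moved with the day as well. The 8 luteal and steroidogenic genes summed to 3500 to 5920 FPKM in DSS day 89, 4470 to 5030 in control day 89, 1980 to 3070 in DSS day 7 and 2470 to 3520 in control day 7, with 6 of 8 called higher in DSS and 0 of 8 in control mice between days. Of all tested genes, 10.7% were called higher in DSS mice and 16.1% in control mice. What part the make-up of the ovary has in the H1f10 difference was not tested.

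H1f8 (formerly H1foo; chr6:115944938-115950236, plus strand) encodes the linker histone of the oocyte. It had 13.1, 12, 17.5 and 28 FPKM in DSS day 89 ovaries, against 67.5, 59.7, 73.5 and 53 FPKM in DSS day 7 ovaries. In control ovaries it had 16.7, 3.52 and 21.5 FPKM at day 89, against 48.6, 22.2 and 46.1 FPKM at day 7. Day 89 and day 7 did not overlap in either treatment, although control replicate 51 at day 7 came close to control replicate R126 at day 89. H1f8 fell to 17.6 ± 7.3 FPKM in DSS day 89, against 63.4 ± 8.98 FPKM in DSS day 7 (SD, n = 4 each), a log2 difference of -1.85 (SE 0.43, limma adjusted p = 0.0104) that held in all 23 alternatives. In control mice it fell to 13.9 ± 9.31 FPKM at day 89, against 38.9 ± 14.6 FPKM at day 7 (SD, n = 3 each), a log2 difference of -1.63 (SE 0.49, limma adjusted p = 0.0228). That call was lost in 8 of 23 alternatives. The difference was -0.92 (adjusted p = 0.0766) without control replicate R124, -1.44 (0.0779) without control replicate 10 and -1.48 (0.0799) without control replicate 53. It was -1.29 (adjusted p = 0.071) with the length trend removed, -0.93 (0.41) without the 3 mitochondria-rich libraries, which leaves 1 control at day 7, and -1.25 (0.161) with a term for them. The fits without the filter (0.0579) and on the compared libraries alone (0.0978) were the others.

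Other oocyte genes were lower at day 89 in DSS mice, and part of them in control mice. The 15 listed oocyte genes, among them Gdf9, Zp3, Padi6 and Npm2, summed to 81.5 to 246 FPKM in DSS day 89, 48 to 194 in control day 89, 412 to 660 in DSS day 7 and 206 to 373 in control day 7. Of the 15, 14 fell in DSS day 89 against DSS day 7 and 8 fell in control day 89 against control day 7, with median log2 differences of -1.62 and -1.06, where the median of all tested genes was 0. Among all tested genes, 10.7% were called lower in DSS mice and 15.7% in control mice. The zona pellucida genes Zp1 and Zp2 and the deiminase gene Padi6 did not pass in control mice. Their means there were 7.11, 14.4 and 25.5 FPKM at day 89, against 7, 14.3 and 25.8 FPKM at day 7. H1f8 was equal to 11.4 ± 2.34% of that sum in DSS day 89, 9.19 ± 2.19% in control day 89, 12.2 ± 1.22% in DSS day 7 and 12.4 ± 1.55% in control day 7 (SD). FPKM is scaled to depth, so in whole ovaries fewer oocytes, less RNA per oocyte and more RNA from other cells cannot be told apart. The 10 genes ranking most like H1f8 over the 14 libraries were Elobl (rho 0.991), Trim61 (0.987), Cpa1, Fbxw19 and Oas1e (0.982 each), Ooep and Tuba4a (0.978 each), and Mos, Oas1d and Zar1 (0.974 each). Ooep, Mos and Zar1 are on the oocyte list.

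Because these 2 genes differed by day, their promoters are shown, from 250 bases before to 50 after the start in RefSeq on GRCm38.p6. In that of H1f10 (chr6:87981433-87981732, minus strand) the capitals mark CG pairs.
H1f10 promoter: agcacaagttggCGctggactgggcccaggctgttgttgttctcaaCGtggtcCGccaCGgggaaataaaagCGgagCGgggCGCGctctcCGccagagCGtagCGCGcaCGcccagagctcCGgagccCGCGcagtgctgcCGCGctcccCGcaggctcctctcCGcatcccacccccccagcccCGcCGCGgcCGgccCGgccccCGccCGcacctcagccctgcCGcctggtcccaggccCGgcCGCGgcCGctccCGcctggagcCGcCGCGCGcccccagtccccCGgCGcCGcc
It held 40 CG pairs at 77.7% G and C, where the median of 32851 promoters was 7 pairs and 52.7%. The GENCODE model of H1f10 starts further upstream than the RefSeq start, at position 87981637. The part of this window from there to 87981433 thus lies inside that model. In the promoter of H1f8 (chr6:115944681-115944980, plus strand) the capitals mark CCAAT, here in its reverse complement, and the E-box letters CANNTG.
H1f8 promoter: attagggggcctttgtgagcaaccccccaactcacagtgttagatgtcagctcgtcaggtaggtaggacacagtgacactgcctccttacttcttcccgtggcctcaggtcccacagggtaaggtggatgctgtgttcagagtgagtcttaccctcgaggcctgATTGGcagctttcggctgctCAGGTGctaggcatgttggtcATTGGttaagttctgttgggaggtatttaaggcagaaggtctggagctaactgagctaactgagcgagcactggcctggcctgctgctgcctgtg
H1f8 had 5 CG pairs at 54.7% G and C. Searched on both strands, CANNTG stood in 72.3% of all promoters and CCAAT in 37.4%, so the presence of either in H1f8 sets it apart little. Among 65 promoters of 64 histone genes with an entry, CCAAT stood in 54, TATAAA in 35 (13.6% of all promoters) and the octamer ATTTGCAT in 14 (1.74% of all), 7 of these in the 15 H2bc promoters. A match is a description of letters and not of a factor's binding.

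H1f0 (chr15:79028450-79030504, plus strand), the replacement linker histone of resting and differentiated cells, was the highest linker gene. It had 93.1, 113, 101 and 94.3 FPKM in DSS day 89, against 109, 90.5, 102 and 110 FPKM in DSS day 7. In control ovaries it had 113, 63.9 and 74 FPKM at day 89, against 151, 122.8 and 99.4 FPKM at day 7. DSS libraries overlapped throughout (log2 difference -0.04, SE 0.18, limma adjusted p = 0.892). In controls the groups overlapped through replicate R123, and H1f0 fell to 83.5 ± 25.7 FPKM at day 89, against 125 ± 26 FPKM at day 7 (SD, n = 3 each; log2 difference -0.59, SE 0.21, limma adjusted p = 0.0419). The call was lost in 14 of 23 alternatives (-0.83 to -0.34, adjusted p 0.0104 to 0.218), including the length trend removed, and leaving out any of control replicates 10, 51, R124 and R126 (-0.44, -0.59, -0.42 and -0.53) or DSS replicates 81, 82, R29, R78 and R89 (-0.59 each).

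H1f2 (formerly Hist1h1c; chr13:23738808-23740367, plus strand), a somatic linker gene of the cluster on chromosome 13, had its lowest mean in DSS day 7. It had 49.9, 20.6, 45 and 28 FPKM in DSS day 7 ovaries, against 63.6, 78.6 and 51.1 FPKM in control day 7 ovaries. No DSS library reached the lowest control, although replicate 75 came close to it. The log2 difference was -0.89 (SE 0.27, unadjusted p = 0.00616, limma adjusted p = 0.161), which does not pass over all genes. Without the mitochondria-rich replicate 75 it was -1.07 with an adjusted p of 0.0336, and over the 23 alternatives it ran from -1.37 to -0.66 with 1 call. At day 89 H1f2 had 45.8, 47.1, 39.9 and 32.3 FPKM in DSS ovaries, against 58, 61.8 and 40.5 FPKM in control ovaries. These overlapped (log2 difference -0.36, SE 0.27, adjusted p = 0.924), and the DSS effect at day 89 minus that at day 7 was 0.53 (SE 0.39, adjusted p = 0.71).

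**Figure D3:**
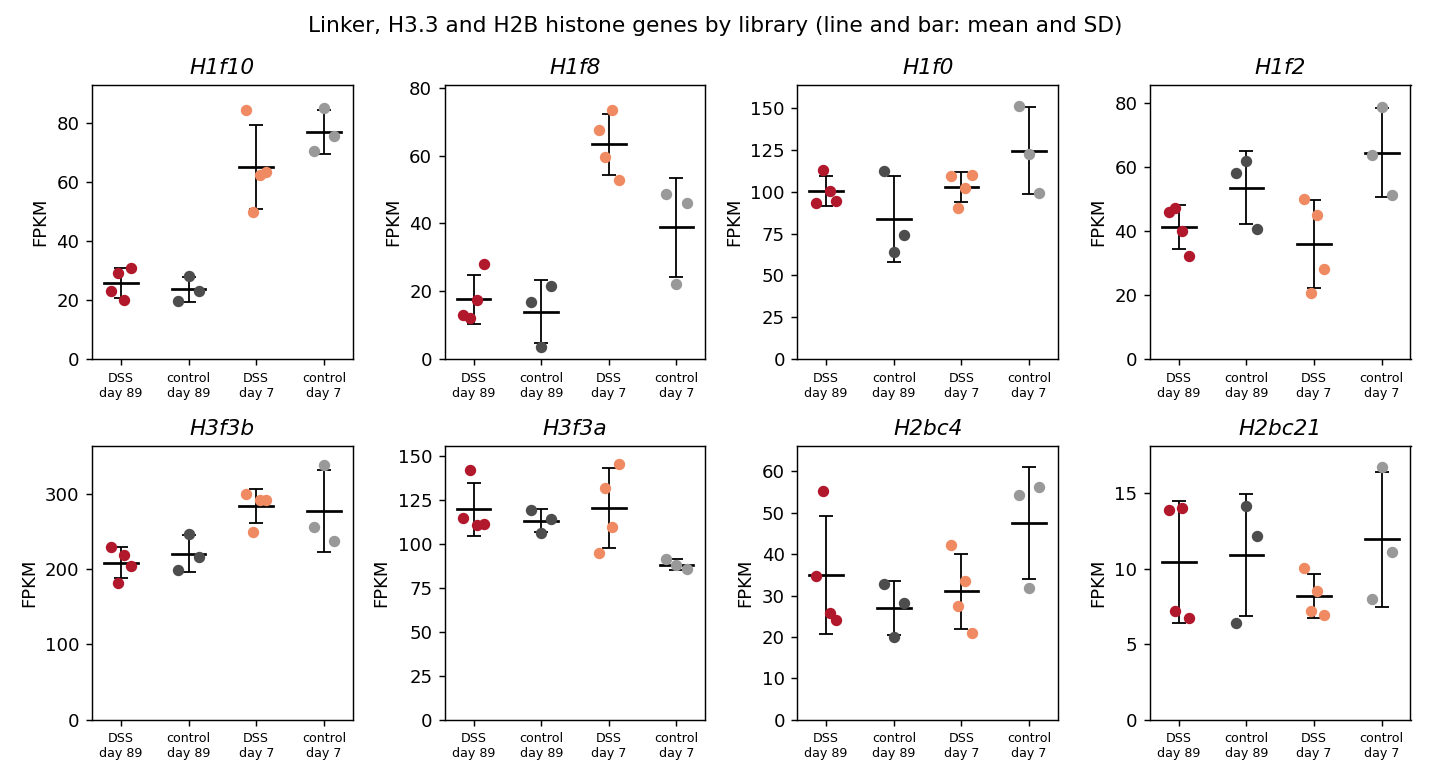
FPKM of 8 histone genes in each library (points), with the group mean (line) and SD (bar), for DSS day 89, control day 89, DSS day 7 and control day 7. H1f10 lies at 19.8 to 30.8 FPKM in all day 89 libraries and at 50 to 85.1 FPKM in all day 7 libraries, while H2bc4 and H2bc21 overlap in every comparison.

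The mix of linker genes followed from these levels, as shares of their summed FPKM. H1f10 made up 13.8 ± 2.23% in DSS day 89, 13.9 ± 4.18% in control day 89, 24.1 ± 2.34% in DSS day 7 and 25.4 ± 3.84% in control day 7 (SD). H1f8 made up 9.54 ± 3.97%, 7.89 ± 5.59%, 23.8 ± 3.06% and 12.9 ± 5.07% in the same groups in that order, and H1f2 22.3 ± 3.65%, 30.8 ± 7.33%, 13.1 ± 3.41% and 21 ± 3.78%. The H1f8 share of DSS day 7 libraries (20.7% to 26.9%) lay above that of control day 7 libraries (7.17% to 16.9%), and their H1f2 share (9.32% to 16%) below it (18.7% to 25.4%). The summed linker FPKM was 175.9 to 201.7 in DSS day 89, 158.2 to 207.9 in control day 89, 221.5 to 311.4 in DSS day 7 and 272.8 to 335 in control day 7. These shares are not independent of one another or of the single genes, and were not tested.

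**Figure D4:**
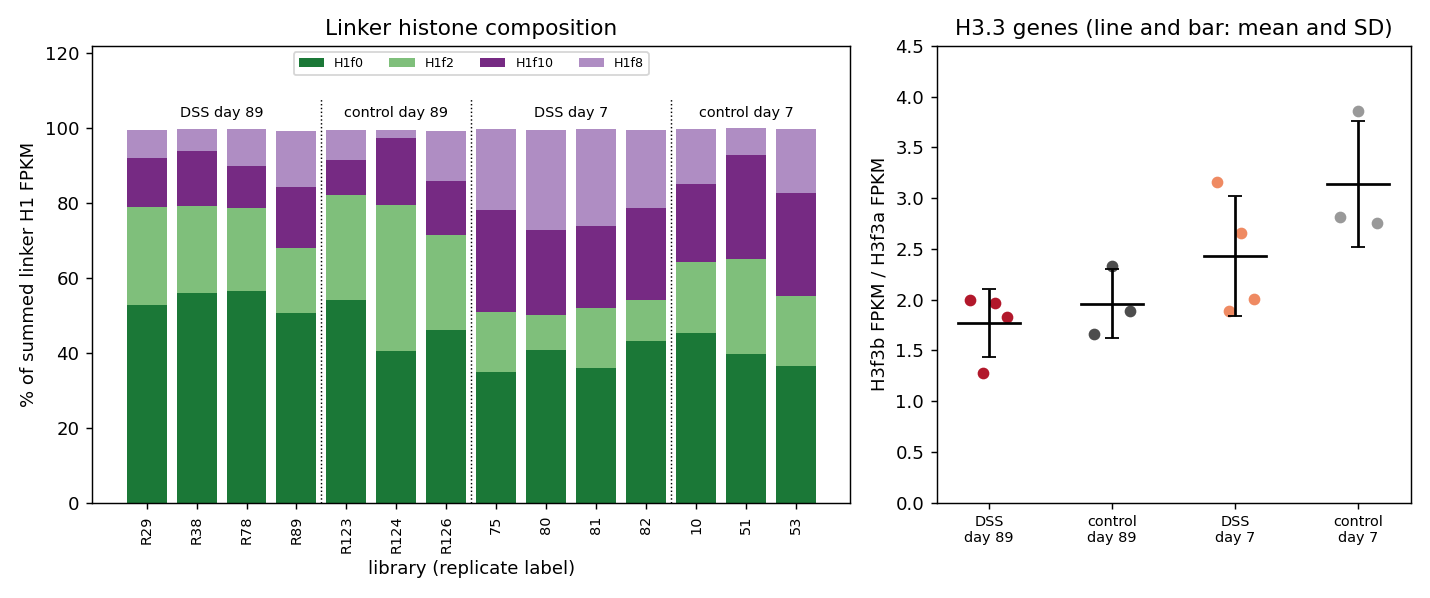
Left, share of the summed linker FPKM held by H1f0, H1f2, H1f10 and H1f8 in each library (stacked bars, in %; the small remainder to 100 is the other linker genes); right, ratio of H3f3b to H3f3a FPKM per library with group mean and SD. H1f10 and H1f8 together take a smaller share at day 89, and the ratio averages 1.77 in DSS day 89, 1.96 in control day 89, 2.43 in DSS day 7 and 3.14 in control day 7.

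The H3.3 genes were the most highly expressed of the set, and neither passed the test in any comparison. H3f3b (chr11:116021912-116027962, minus strand) and H3f3a (chr1:180800832-180813943, minus strand) encode the same H3.3 protein, the variant laid down outside DNA replication. H3f3b had 230, 182, 218 and 204 FPKM in DSS day 89, against 300, 250, 292 and 293 FPKM in DSS day 7. In control ovaries it had 199, 247 and 216 FPKM at day 89, against 257, 339 and 237 FPKM at day 7. The DSS groups did not overlap between days, and the control groups overlapped. The log2 differences were -0.44 in DSS (SE 0.15, limma adjusted p = 0.0509, called in 4 of 23 alternatives, among them without control replicate 51 with an adjusted p of 0.0303) and -0.32 in controls (SE 0.17, adjusted p = 0.179).

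H3f3a had 94.8, 132, 110 and 145 FPKM in DSS day 7 ovaries, against 91.5, 87.8 and 85.7 FPKM in control day 7 ovaries. Every DSS library was above every control, replicate 75 by the least. The log2 difference was 0.43 (SE 0.16, unadjusted p = 0.0173, limma adjusted p = 0.22), and without replicate 75 it was 0.53 with an adjusted p of 0.0449. At day 89 it had 115, 142, 111 and 111 FPKM in DSS ovaries, against 120, 106 and 114 FPKM in control ovaries, which overlapped (log2 difference 0.07, SE 0.16, adjusted p = 0.971). The antisense gene H3f3aos overlaps 168 bases of H3f3a and Gm17275 lies within it on the opposite strand. H3f3aos stayed at 0.16 to 1.23 FPKM in all libraries.

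Core histone genes of the clusters had low FPKM. Of 18 listed RNAs without a poly(A) tail, 13 to 15 were at 0 in all libraries of a group, depending on the group. Whether messages without such a tail were captured is not stated. What part this has in the low core values was not tested. The 58 together summed to 63.1 ± 13.2 FPKM in DSS day 89, 62.8 ± 6.13 in control day 89, 55.6 ± 12 in DSS day 7 and 80.5 ± 11.7 in control day 7 (SD). H2bc4 and H2bc21, both H2B genes, made up most of this, and without them the sums were 17.6 ± 2.17, 24.9 ± 5.92, 16.4 ± 1.75 and 21 ± 3.06 FPKM in those groups in that order. Of the 15 core genes tested, 14 (all but H2bc21) have more than 20% of their 50-base windows in common with another gene, so the split of reads between copies is uncertain. The Spearman rank of libraries by the core sum was most like that of Adcy4 (rho 0.934, 14 libraries), Kcnab3 (0.93), Tmem44 (0.912), Cars2 and Pik3r6 (0.899 each), B230307C23Rik (0.89), Zfp629 (0.877), Gramd1a and Hdgfl2 (0.873 each) and Atp9b (0.851).

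H2bc4 (formerly Hist1h2bc; chr13:23684199-23692908, plus strand) had 34.8, 55.2, 25.7 and 24.1 FPKM in DSS day 89, against 32.8, 20 and 28.3 FPKM in control day 89. At day 7 it had 42.1, 27.5, 33.5 and 20.9 FPKM in DSS ovaries, against 54.4, 32 and 56.2 FPKM in control ovaries. The groups overlapped in every comparison, with log2 differences between DSS and control of 0.31 at day 89 (SE 0.31, adjusted p = 0.933) and -0.60 at day 7 (SE 0.31, adjusted p = 0.353). Control day 89 against control day 7 gave -0.78 (SE 0.33, limma adjusted p = 0.0839), with 2 calls in 23 alternatives (-1.04 without control replicate 51, and -0.78 without DSS replicate R38). H2bc21 (formerly Hist2h2be; chr3:96221119-96223738, plus strand), which shares no 50-base window with another gene, had 13.9, 7.22, 14 and 6.74 FPKM in DSS day 89, against 6.42, 14.2 and 12.2 FPKM in control day 89. At day 7 it had 10.1, 7.2, 8.51 and 6.96 FPKM in DSS ovaries, against 7.98, 16.8 and 11.1 FPKM in control ovaries. DSS and control libraries overlapped at both days, and the difference furthest from 0 was -0.45 (SE 0.31, limma adjusted p = 0.496), for DSS against control at day 7.

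The H4 genes H4c9 and H4c8 followed at means of 4.7 and 2.37 FPKM over all libraries. H4c9 (formerly Hist1h4i; chr13:22040636-22041362, minus strand) averaged 4.2 ± 2.07 FPKM in DSS day 89, 6.06 ± 1.31 in control day 89, 3.37 ± 1.27 in DSS day 7 and 5.76 ± 1.59 in control day 7 (SD), on 18 to 92 reads per library. H4c8 (formerly Hist1h4h; chr13:23531050-23531519, plus strand) averaged 1.97 ± 0.775, 3.86 ± 1.98, 1.51 ± 0.382 and 2.57 ± 1.51 FPKM in those groups in that order, on 8 to 45 reads per library. Both genes overlapped between groups in every comparison and neither passed (smallest limma adjusted p 0.366 for H4c9, in DSS against control at day 7, and 0.369 for H4c8, in control day 89 against control day 7).

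H4c12 (formerly Hist1h4k; chr13:21750194-21750505, minus strand) was the core gene with a call of higher expression. It had 1.93, 6.69 and 3.91 FPKM in control day 89 ovaries, on 11, 37 and 20 reads, against 1.28, 0 and 0 FPKM in control day 7 ovaries, on 6, 0 and 0 reads. The log2 difference was 1.87 (SE 0.46, limma adjusted p = 0.00861) and was called in 22 of 23 alternatives. The exception was the fit with a term for the mitochondria-rich libraries (1.70, adjusted p = 0.0599). In DSS ovaries it had 1.02, 0, 1.96 and 0.907 FPKM at day 89, against 0, 1.59, 0.677 and 0.842 FPKM at day 7, which overlapped (log2 difference 0.13, SE 0.40, adjusted p = 0.843). DSS day 89 libraries were below control day 89 libraries but for replicate R78 (log2 difference -1.39, SE 0.43, unadjusted p = 0.00645, adjusted p = 0.924). The annotated model is 312 bases long and 71.5% of its 50-base windows occur in other genes, and its 112 reads over all libraries cannot be assigned to it with certainty.

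Of the H3 genes, H3c15 (formerly Hist2h3c2; chr3:96238108-96239127, minus strand) was highest. It had 1.16, 1.03, 1.97 and 0.978 FPKM in DSS day 7, against 1.37, 2.97 and 5.28 FPKM in control day 7. The groups overlapped (log2 difference -0.79, SE 0.28, unadjusted p = 0.0131, limma adjusted p = 0.202). At day 89 it averaged 1.89 ± 0.545 FPKM in DSS ovaries and 2.73 ± 0.646 FPKM in control ovaries (SD; log2 difference -0.37, adjusted p = 0.924). It shares 63.5% of its windows with other genes, and its near-identical copies H3c13 and H3c14 were listed at 0 in all libraries. H3c3 averaged 0.414 ± 0.309, 0.275 ± 0.181, 0.443 ± 0.204 and 0.575 ± 0.367 FPKM in DSS day 89, control day 89, DSS day 7 and control day 7 in that order, without a call. H3c8 (formerly Hist1h3g; chr13:23535422-23535951, plus strand) fell to 0.14 ± 0.121 FPKM in control day 89, against 0.753 ± 0.388 FPKM in control day 7 (SD, n = 3 each; log2 difference -0.60, SE 0.21, limma adjusted p = 0.0442). It rests on 45 reads over all 14 libraries. The call was lost in 15 of 22 alternatives. Among these were leaving out control replicates 10, 53, R123, R124 or R126 (-0.65 to -0.49) or DSS replicates 81, R29, R78 or R89 (-0.60 each). Among them was also the fit without the 3 mitochondria-rich libraries, at -0.20, which leaves control replicate 51 alone at day 7.

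The H2A genes of the clusters held the smallest share of histone reads of any family. H2ac8 averaged 0.824 ± 0.306 FPKM in DSS day 89 and 0.384 ± 0.273 FPKM in control day 89, and H2ac23 0.485 ± 0.373 and 0.0848 ± 0.147 FPKM (SD). At day 7 H2ac8 averaged 0.465 ± 0.254 FPKM in DSS and 0.668 ± 0.488 FPKM in control ovaries, and H2ac23 0.697 ± 0.25 and 0.605 ± 0.344 FPKM. Neither was called in any comparison, and H2ac23 shares 93.5% of its windows with other genes. Control day 89 against control day 7 gave -0.55 for H2ac23 (adjusted p = 0.0905, and -0.73 with an adjusted p of 0.0378 without control replicate 51). The other tested core genes, H2bc8, H2bc11, H3c4, H3c11 and H4c11, had means of 0.338 to 0.655 FPKM. H2bc8 had 1.06, 0.913 and 0.593 FPKM in control day 89, against 0.323, 0 and 0 FPKM in control day 7, on 0 to 12 reads per library. Its log2 difference of 0.75 (SE 0.28, limma adjusted p = 0.0534) passed in 8 of 23 alternatives, among them leaving out DSS replicates 75, 82, R29 or R38 (adjusted p 0.0408 to 0.047).

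The other 50 histone genes did not pass the filter and were left out of the tests. They were 7 H1f, 15 H2ac, 13 H2bc, 7 H3c and 8 H4c genes, and together they held 54 to 136 reads per library. The highest mean was 0.294 FPKM, for the linker gene H1f5, just under the lowest mean of 0.338 FPKM among the tested genes, for H2bc11. Of the 50, 17 reached 0.5 FPKM in some library, and the highest single value was 1.72 FPKM for H2bc12 in DSS day 7 replicate 75. At 0 in all 14 libraries were H2ac18, H2ac19, H2bc18, H3c13 and H3c14 on chromosome 3 and H1f7 on chromosome 15. Every 50-base window of the first 5 also occurs in another gene. H1f7, a linker histone of the testis, shares none. The 6 genes at 0 did not enter the fit with no filter on low values. In that fit, 3 of the other untested genes were called between days by limma, on 25 to 51 reads over all libraries. Of its 35722 genes, 1408 were called lower in DSS mice and 2429 higher in control mice at day 89 against day 7. H1f1 (log2 difference -0.43, adjusted p = 0.0115) and H3c1 (-0.56, 0.0127) were lower in DSS day 89 than in DSS day 7, and H4c14 (0.35, 0.00183) was higher in control day 89 than in control day 7.

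DSS against control was the comparison that the study was built on, and it gave no histone call. At day 89, 0 of 21 tested histone genes passed limma at an adjusted p of 0.05, where 0.00555% of the 18006 tested genes did (1 gene). Limma-voom on recovered reads called 0 of the 21 as well. At an unadjusted p under 0.05 the count was 1 of 21 (H4c12), against 4.58% of all genes, and groups that did not overlap numbered 0 higher and 0 lower, against 4.04% and 4.25% of all genes. The median log2 difference of the 21 was -0.06 and that of all genes 0.

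At day 7, 0 of 21 passed, where 0.0333% of all tested genes did (6 genes, 0.00555% higher and 0.0278% lower), and limma-voom called 0. At an unadjusted p under 0.05 there were 3 of 21 (H1f2, H3c15 and H3f3a), 14.3%, against 16% of all genes. H1f8, H3c11 and H3f3a were higher in every DSS library than in any control (14.3%, against 6.24% of all genes), and H1f2 was lower (4.76%, against 5.87%). For H1f8 the log2 difference was 0.76 (SE 0.46, adjusted p = 0.439) and for H3c11, on 0 to 5 reads per library, 0.35 (SE 0.19, adjusted p = 0.375). Neutrophil, erythrocyte and oocyte markers had higher sums in DSS libraries of this comparison, with no single marker called. The 9 neutrophil genes summed to 13.7 to 133 FPKM in DSS day 7, against 1.7 to 3.9 FPKM in control day 7. The 6 erythrocyte genes summed to 410 to 726 FPKM in DSS day 7, against 49.9 to 310 FPKM in control day 7. For the 15 oocyte genes the sums were 412 to 660 FPKM in DSS day 7, against 206 to 373 FPKM in control day 7. Their part in the histone values was not tested. The median log2 difference of the 21 was -0.18, 13 being below 0, and that of all genes was 0. The number of genes called at day 7 turned on 1 library. Without DSS replicate 75 it was 1221 of the 18006 tested genes, and 2 of the 21 tested histone genes (H1f2 and H3f3a). No histone gene was called for a DSS effect that differed between days (background 0%, 0 genes). At an unadjusted p under 0.05 there was 1 (H4c12, -1.74, SE 0.61, adjusted p = 0.528), against 8.45% of all genes.

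Day 89 against day 7 gave more calls in the whole table than among the histones. In DSS mice, 2 of 21 histone genes were called (H1f10 and H1f8, both lower), 9.52%, against 21.4% of all tested genes. In control mice, 5 of 21 were called, 23.8%, against 31.8% of all. H1f10, H1f8, H1f0 and H3c8 were lower (19%, against 15.7% of all genes), and H4c12 was higher (4.76%, against 16.1%). At an unadjusted p under 0.05 there were 4 of 21 in DSS mice (19%, against 36.6% of all genes) and 8 of 21 in control mice (38.1%, against 43.3%). In DSS mice 3 did not overlap and were lower (H1f10, H1f8 and H3f3b; 14.3%, against 12.7% of all). In control mice 4 did not overlap and were lower (H1f10, H1f8, H3c8 and H4c11; 19%, against 22.2%) and 3 were higher (H2bc8, H3f3a and H4c12; 14.3%, against 22.8%). The median log2 differences of the 21 were 0 in DSS and -0.25 in control mice, with 10 and 14 below 0. Most of these shares lie at or below the background. The calls are given for single genes, and the set as a whole was not tested.

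**Figure D5:**
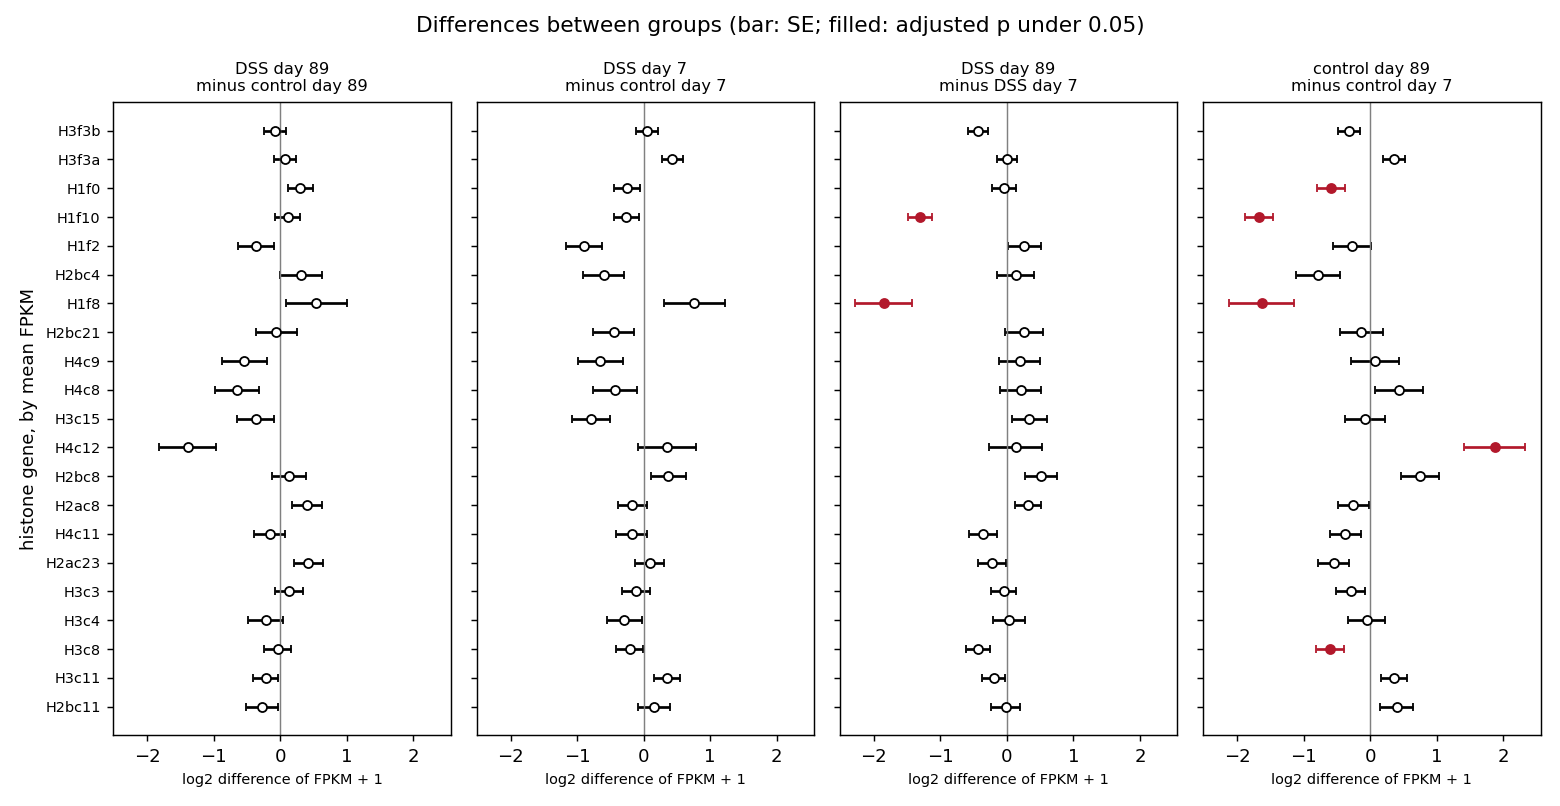
Log2 difference of FPKM + 1 (points) with its SE (bars) for the 21 tested histone genes in 4 comparisons; filled points have a limma adjusted p under 0.05. Both DSS against control panels have no filled point, H1f10 and H1f8 are filled and lower in both day panels, and H1f0, H3c8 (lower) and H4c12 (higher) are filled in the control panel alone.

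Genes that make or handle histones were read from lists chosen with earlier results of these data known. Their calls come from the main fit alone, and the fit with the length trend removed was not read for them. What part the shift of short against long genes has in these calls was not tested. Between days, 10.7% of all tested genes were called higher and 10.7% lower in DSS mice, and 16.1% and 15.7% in control mice. The 20 S phase genes, which include Pcna, Mcm7, Mcm6 and Mcm3, had no call between DSS and control at either day. Their median log2 differences were -0.03 at day 89 and 0.31 at day 7. In control mice at day 89 against day 7, 3 rose (Mcm5 by 1.19, Pola1 by 0.85 and Fen1 by 0.71 on the log2 scale) and 1 fell. In DSS mice 1 rose and 2 fell. Among these, Fen1 rose by 0.49 (limma adjusted p = 0.0496) and Gins2 fell by 0.62 (adjusted p = 0.0084). The proliferation antigen gene Mki67 averaged 13.9 ± 1.53 FPKM in DSS day 89, 12.7 ± 4.34 in control day 89, 15.7 ± 1.08 in DSS day 7 and 17.9 ± 2.03 in control day 7 (SD). Of 12 mitosis genes, 0 were called between DSS and control, 1 rose and 1 fell in control mice between days, and 2 fell in DSS mice, among them the survivin gene Birc5 in both (log2 differences -0.98 in DSS, adjusted p = 0.00182, and -0.83 in control mice, adjusted p = 0.00349).

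Of 12 genes for the transcription and 3′ processing of histone messages, 2 rose in DSS mice (10.7% of all genes did) and 3 rose in control mice (16.1% of all genes did) at day 89 against day 7, and none fell. Npat, the coactivator of replication-dependent histone genes, averaged 4.73 ± 0.709 FPKM in DSS day 89 and 4.87 ± 1.11 in control day 89, against 2.96 ± 0.162 in DSS day 7 and 2.58 ± 0.442 in control day 7. It rose by 0.52 in DSS mice (SE 0.14, limma adjusted p = 0.0211) and by 0.70 in control mice (SE 0.16, adjusted p = 0.00652) on the log2 scale. Casp8ap2 (FLASH), which takes part in processing at the stem-loop, rose by 0.77 (SE 0.21, adjusted p = 0.0216) and by 1.36 (SE 0.24, adjusted p = 0.00155). Slbp, which binds the stem-loop, averaged 9.08 ± 0.43, 9.62 ± 0.233, 12.3 ± 4.01 and 8.82 ± 2.32 FPKM in DSS day 89, control day 89, DSS day 7 and control day 7 in that order, without a call. No gene of this list was called between DSS and control at either day.

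Of 20 histone chaperones, 0 were called between DSS and control. In DSS mice 2 rose and 7 fell at day 89 against day 7, where 10.7% of all tested genes rose and 10.7% fell. In control mice 4 rose and 4 fell, where 16.1% of all tested genes rose and 15.7% fell. Npm2, the histone chaperone of the oocyte, fell by 2.22 in DSS mice (SE 0.42, adjusted p = 0.00448) and by 2.04 in control mice (SE 0.49, adjusted p = 0.00727) on the log2 scale. Npm1 fell by 0.83 (SE 0.13, adjusted p = 0.00175) and by 1.11 (SE 0.15, adjusted p = 0.000386), with levels of 162 ± 14.5 FPKM in DSS day 89, 165 ± 11.7 in control day 89, 288 ± 16.4 in DSS day 7 and 359 ± 31.4 in control day 7. Hira, which deposits H3.3, fell by 0.89 (SE 0.23, adjusted p = 0.0166) and by 0.76 (SE 0.26, adjusted p = 0.0413). Atrx, which takes part in H3.3 deposition at repeats, rose by 0.61 (adjusted p = 0.0119) and by 0.93 (adjusted p = 0.00163).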

How the data were processed

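Ovary RNA of 14 mouse libraries was sequenced (TruSeq RNA kit from total RNA, per the labels' protocols). The authors deposited FPKM values per gene. HISAT2 2.0.5 and build GRCm38 are named in the submitters' processing notes. Counter, annotation release, strand and multi-mapping are not stated there. The histone genes and all gene lists were chosen with earlier results of these data known.

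The deposited FPKM were tested as log2(FPKM + 1) with limma-trend (limma 3.58.1, R 4.3.3), 1 mean per group over all 14 libraries, for the 18006 of 56748 genes with at least 0.5 FPKM in at least 3 libraries. P-values were adjusted by Benjamini-Hochberg over these 18006 genes, with a threshold of 0.05. The code was tested on simulated data. Reads were recovered from FPKM times gene length, whose low values are whole multiples of 1 step (100% within 0.01 below 300 steps). They gave depth and a limma-voom alternative added after seeing the data. Values for 71 histone genes come from 15.26 to 18.51 M reads per library, so that 1 FPKM is few reads for a short gene.

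The genes given in full were the H1 and H3.3 genes that passed, the 2 highest core genes of each family by mean FPKM, and every histone gene called. H2bc8, H2bc11, H3c4, H3c11, H4c11, the untested genes named and the called genes of the lists were named after their values were seen. A library is called mitochondria-rich above 8%. Stem-loops and hexamers were searched in GENCODE M21 models (64 of 71 equal to the deposited length), and motifs in RefSeq promoters on GRCm38.p6. The values of 1 S phase gene are not reported here.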

Additional observations from a re-analysis of the deposited data

Results flagged for a closer look

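Within groups of 4 libraries, 3 values of tested histone genes stood far from the other libraries of their group, of 42 gene and group pairs examined. Chance flags about 1 in 20 such groups. H3f3b was at 250 FPKM in DSS day 7 replicate 80, against 292 to 300 FPKM in the other 3. H3f3a was at 142 FPKM in DSS day 89 replicate R38, against 111 to 115 FPKM in the other 3. The H2B gene H2bc11 was at 1.1 FPKM in DSS day 89 replicate R29, against 0 to 0.124 FPKM in the other 3.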

How the results depend on the processing

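Of the recomputed histone values, 2298 kept their direction and their side of the threshold, 38 fell below it, 18 rose past it and 0 reversed. The count of histone genes called in control day 89 against control day 7 was 5 of the 21 tested. With no filter, 4719 of 35722 genes were called and the histone count was 3 of 65 (H1f10, H4c12 and, from outside the 21, H4c14). It was 3 with the compared libraries alone, 2 without the mitochondria-rich libraries and 1 with a term for them. In DSS day 89 against DSS day 7 it was 2, and 4 of 65 with no filter (H1f10, H1f8 and, from outside the 21, H1f1 and H3c1). Of the 35722 genes of that fit, 1415 were called higher and 1408 lower. Leaving out each library in turn gave 2 to 7 histone calls in control mice and 2 to 3 in DSS mice between days. It gave 0 to 2 in DSS against control at day 7, and 0 to 0 both at day 89 and for the difference of the DSS effects. Over all genes, DSS against control at day 7 had 6 calls, and 2 with a pseudocount of 0.1, 0 with the compared libraries alone, 11 with the length trend removed, 915 without the mitochondria-rich libraries, 20 with a term for them, 0 by limma-voom and 0 to 1221 with each library left out. At day 89 it had 1, and 0 with a pseudocount of 0.1, 5 with no filter, 0 with a filter of 1 FPKM, 0 with the compared libraries alone, 0 without the mitochondria-rich libraries, 0 by limma-voom and 0 to 2 with each library left out. Control day 89 against control day 7 had 5732, and 3231 without the mitochondria-rich libraries, 3141 with a term for them and 3695 to 6463 with each library left out. DSS day 89 against DSS day 7 had 3860, and 2034 to 4930 with each library left out. The difference of the DSS effects had 0, and 2 with no filter, 3 without the mitochondria-rich libraries and 0 to 41 with each library left out. The cause of these shifts was not tested. Single genes of the other lists were not read under the alternative settings. No paired analysis was possible because no replicate number recurs between groups. The planned edgeR and DESeq2 fits were not run, since the table holds FPKM.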

Other observations

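The expression table also holds histone genes whose symbols the rule on names leaves out. They were chosen after their values were seen, and 10 of them passed the filter. H2az1 and H2az2 encode H2A.Z, a variant found at promoters, and H2ax the variant that is phosphorylated at DNA breaks. Together the 10 summed to 284 to 371 FPKM in DSS day 89, 325 to 374 in control day 89, 491 to 569 in DSS day 7 and 403 to 547 in control day 7. At day 89 against day 7, H2az1, H2az2, H2ax and Cenpa were called lower in DSS mice by limma (log2 differences -0.83, -0.75, -0.62 and -0.52), and H2az2, H2ax, H2aj and H2aw in control mice (-1.09, -0.79, -0.91 and -1.36). Over all tested genes, 10.7% were called lower in DSS mice and 15.7% in control mice. No gene of the 10 was called between DSS and control mice at either day.

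H2az1 averaged 130 ± 14.1 FPKM in DSS day 89, 155 ± 4.58 in control day 89, 234 ± 32.9 in DSS day 7 and 134 ± 43.3 in control day 7 (SD). H2az2 averaged 57.9, 60.3, 98.7 and 130 FPKM in the same groups in that order, and H2ax 41.3, 39.5, 64.7 and 69.4 FPKM. H2az2 and H2ax were thus lower at day 89 in both treatments, as H1f10 was, while H2az1 was called in DSS mice alone. Whether the difference between days itself differs between treatments gave 0 calls among the 10.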
